A study of Mus musculus and Mus musculus
Oryx dammah with 30 samples.

Results

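Transcripts of 10 oocyte genes were followed in mouse nuclear transfer (NT) embryos: Zp1, Zp2, Zp3, Gdf9, Bmp15, Oosp1, Mos, Kit, Figla and Nobox. They were found by gene name in each of 3 tables of expression values, where they are 10 of 53023 genes in the four-cell and replication tables and 10 of 55364 in the two-cell table. The question was how much of these transcripts was left in NT embryos cultured with and without α-amanitin, an inhibitor of RNA polymerase II, and at different stages of the recipient.

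The growing oocyte makes these RNAs before ovulation and stores part of them. Zp1, Zp2 and Zp3 encode glycoproteins of the zona pellucida, the coat of the egg to which sperm bind. Gdf9 and Bmp15 encode secreted growth factors of the TGF-β family that act on the surrounding granulosa cells, and Kit encodes the receptor for KIT ligand from those cells. Oosp1 encodes an oocyte-secreted protein, Mos the kinase that starts the MAP kinase cascade holding the egg in metaphase II, and Figla and Nobox transcription factors of the oocyte. Much of the maternal RNA store is degraded after meiosis resumes and around the two-cell stage.

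In every group, cultured C2C12 myoblasts (of C3H origin, a line that grows and can form muscle in culture) were fused with embryos from C57BL/6 and DBA/2 strains that had been arrested with 0.1 µg/ml demecolcine. The recipients kept their own nuclei, so each NT embryo held embryonic and myoblast nuclei, and the RNA of the recipient and of the donor was measured together. In the four-cell experiment, NT was performed from 46 h post insemination (hpi) and embryos were cultured to 70 hpi with α-amanitin (n = 3 libraries) or without it (n = 3). In the two-cell experiment, early recipients (NT from 21 hpi, culture to 45 hpi) and late recipients (NT from 30 hpi, culture to 54 hpi) were cultured with (n = 6) or without (n = 6) α-amanitin. In the replication experiment, NT to four-cell embryos from 40 hpi (culture to 64 hpi) was set beside NT from 46 hpi (culture to 70 hpi), in libraries labelled D (n = 3) and DR (n = 3). Which of these was which is not given in the labels. A library was made from a pool of 3 (four-cell), 4 (replication) or 5 (two-cell) embryos, after the zona pellucida had been removed.

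The names of the two-cell columns give the inhibitor but not the stage. Am1 to Am3 and RAm1 to RAm3 were read as the 6 libraries with α-amanitin. NT1 to NT3 and R3, r1 and r2, whose names carry R but no Am, were read as the 6 without it. Columns whose names carry an R and columns whose names do not were therefore kept as 2 sets of 3 against 3, and neither set was assigned to early or late recipients. RAm1 to RAm3 stood apart from the other 9 two-cell libraries. Their correlation with those (Pearson's r across genes, on log2(FPKM + 1)) was 0.45 to 0.70, while pairs among the 9 gave 0.82 to 0.96 and pairs among RAm1 to RAm3 0.885 to 0.902. They also held the fewest genes with signal, 20573 to 22351 against 23573 to 28270. Results in the columns with R, the interaction and the comparison of the α-amanitin libraries rest on these 3, and the columns without R give the contrast without them.

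Reads counted on genes ranged from 1136771 to 3101001 in the four-cell libraries, from 2603946 to 19181380 in the replication libraries and from 4712266 to 10503778 in the two-cell libraries. Levels are FPKM (reads per kilobase of gene, relative to the total counted reads of the library). Two-cell and replication values were also divided by a factor from the ERCC spike-ins, RNAs that the protocol adds to each lysate. These factors spanned 0.0937 to 5.60 in the replication table, both in group D, and 0.455 to 2.18 in the two-cell table, and whether equal amounts were added was not tested. The four-cell table lists 0 spike-ins, so a change shared by all genes cannot be seen there. In pools of whole embryos, fewer embryos with RNA and less RNA per embryo cannot be told apart. Of 10 markers of cumulus and granulosa cells, which surround the egg and respond to GDF9 and BMP15, 3 to 9 were at 0 in each library. Their summed level was 0.140 to 18.4 FPKM over all libraries, and the part of such cells in the results below was not tested.

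Promoters are shown for Zp3, Bmp15 and Oosp1, as examples of an egg coat gene, a growth factor gene and a secreted protein gene that have a promoter entry. Sequences are from RefSeq (GRCm38.p6), 250 bases before to 50 after the start, 5′ to 3′ on the strand of the gene, and capitals mark each E-box (CANNTG, the same letters on both strands), the motif that FIGLA and its partners bind. The promoter of Zp3 lies at chr5:135979855-135980154 on the plus strand, that of Bmp15 at chrX:6320675-6320974 on the minus strand and that of Oosp1 at chr19:11691002-11691301 on the minus strand.
Zp3: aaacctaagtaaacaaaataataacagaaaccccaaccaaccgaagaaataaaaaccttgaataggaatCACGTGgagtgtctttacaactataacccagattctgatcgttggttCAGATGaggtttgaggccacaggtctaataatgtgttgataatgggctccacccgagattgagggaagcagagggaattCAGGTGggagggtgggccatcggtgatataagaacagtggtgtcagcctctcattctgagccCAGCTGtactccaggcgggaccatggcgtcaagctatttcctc
Bmp15: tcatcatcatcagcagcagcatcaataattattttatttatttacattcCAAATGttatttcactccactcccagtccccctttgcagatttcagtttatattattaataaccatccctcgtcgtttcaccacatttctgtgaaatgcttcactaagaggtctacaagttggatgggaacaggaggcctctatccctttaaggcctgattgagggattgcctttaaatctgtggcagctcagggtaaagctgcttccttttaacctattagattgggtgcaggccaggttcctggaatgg
Oosp1: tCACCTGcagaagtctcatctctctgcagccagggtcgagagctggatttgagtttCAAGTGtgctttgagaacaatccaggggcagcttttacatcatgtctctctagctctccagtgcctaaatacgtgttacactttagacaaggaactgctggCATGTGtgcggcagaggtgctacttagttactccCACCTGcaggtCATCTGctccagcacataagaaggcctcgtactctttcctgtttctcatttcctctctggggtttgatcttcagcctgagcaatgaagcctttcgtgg
The window of Oosp1 held 5 E-boxes, that of Zp3 held 4 and that of Bmp15 held 1. Of 10 members, 6 had a promoter entry (Zp3, Bmp15, Oosp1, Kit, Figla and Nobox), and each window held at least 1 E-box, as did 72.3% of 32851 promoters of the same length. The form CACCTG of the E-box (or CAGGTG on the other strand) occurred 2 times for Oosp1, 1 time for Zp3 and 0 times for Bmp15, and in 20.2% of all promoters. A match to these letters is a description of the sequence and not a binding site.

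In the mm10 gene models of the tables, whose starts and ends match GENCODE for the members, Zp3 spans chr5:135980099-135988624 with 8 exons, and Bmp15 spans chrX:6314107-6320721 with 2. Zp2 lies at chr7:120126772-120145291, Kit at chr5:75574916-75656722 and Nobox at chr6:43303674-43309554. Oosp1 (chr19:11667460-11691150) and Zp1 (chr19:10914287-10920632) lie on the same chromosome. Values are sums over exons, and 0 members overlap another annotated gene.

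Oosp1 transcripts had the highest median level of the members in all 4 groups of two-cell libraries, and Figla the lowest. With α-amanitin, the median Oosp1 level was 1760 FPKM in the columns with R and 176 FPKM in those without, and without the inhibitor it was 118 and 36.9 FPKM. In the α-amanitin libraries with R, Bmp15 (113 FPKM) and Zp2 (75.6 FPKM) came next, and the ranges of these 3 did not overlap. Zp2, Zp1, Zp3 and Gdf9 overlapped with their neighbours in that order. In the untreated libraries of both sets, Oosp1 was followed by Zp3, at 69.4 FPKM with R and 15.7 FPKM without. Gdf9 and Bmp15 came next in both sets, at 5.52 and 5.92 FPKM with R and at 7.69 and 6.20 FPKM without, with overlapping ranges.

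**Figure D1:**
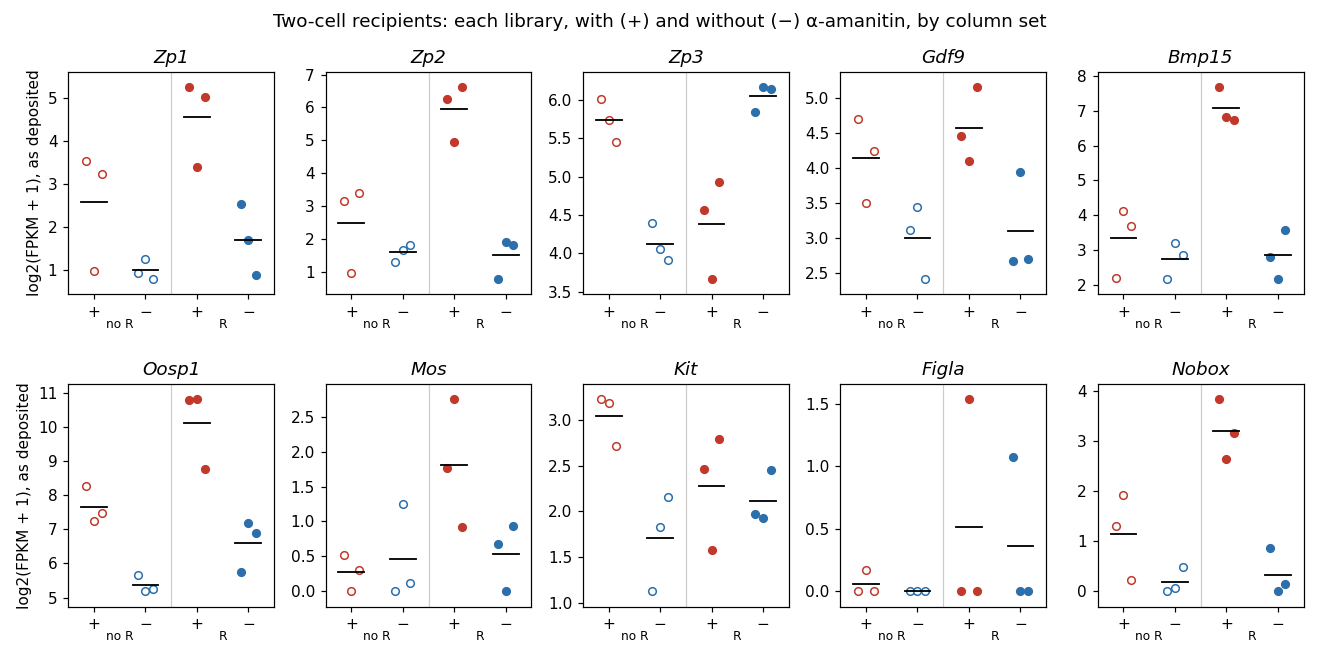
Each point is 1 library of the two-cell table and each line a mean of 3, on a log2(FPKM + 1) scale with values as deposited. Plus and minus mark culture with and without α-amanitin, filled points the columns with R and open points those without. In the columns with R, the α-amanitin libraries lay above the untreated ones for Zp1, Zp2, Gdf9, Bmp15, Oosp1 and Nobox, and below them for Zp3.

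Among the egg coat genes, Zp3 and Zp2 went opposite ways in the columns with R. Zp3, which encodes a structural protein of the coat, read 22.7, 11.7 and 29.5 FPKM with α-amanitin and 56.3, 70.6 and 69.4 FPKM without it, and the groups did not overlap. Zp2, which encodes the coat protein that sperm bind, read 75.6, 29.8 and 97.1 FPKM with α-amanitin and 0.718, 2.77 and 2.55 FPKM without it, again with no overlap. On the spike-in scale, the Zp3 change (without minus with α-amanitin, in log2(FPKM + 1)) was 3.60 (SE 0.30, adjusted p = 6.56e-06) and the Zp2 change was −2.76 (SE 0.46, adjusted p = 0.000502). With values as deposited, these were 1.66 (adjusted p = 0.00269) and −4.43 (adjusted p = 0.000142). The Zp3 change was smaller and not called with median-of-ratios factors (0.59, adjusted p = 0.185). The Zp2 change remained negative and called under all 10 alternatives tried, from −5.28 to −2.32. Zp1, which encodes the cross-linking component of the coat, read 37.0, 9.49 and 31.4 FPKM with α-amanitin and 4.78, 2.23 and 0.844 FPKM without it. Its change was −1.18 on the spike-in scale (adjusted p = 0.0768) and −2.85 as deposited (adjusted p = 0.00299).

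These changes have to be read against all genes, since the median of the 14387 genes tested was 2.56 on the spike-in scale and 1.31 as deposited. Relative to that median, Zp3 was 1.04 higher on the spike-in scale and 0.35 higher as deposited, and Zp2 stood at −5.32 and −5.74. With median-of-ratios factors, the Zp3 change of 0.59 was below the median of all genes, 0.63. On the spike-in scale, 80.7% of genes tested were called higher without α-amanitin and 5.28% lower (as deposited, 60.5% and 16.4%, and with median-of-ratios factors 44.4% and 23.8%). The 759 genes lower became 359 without RAm1, 362 without RAm2 and 367 without RAm3. Genes whose groups did not overlap as deposited made up 61.5% (higher) and 17.0% (lower). Of 8 members tested, 2 were called higher (Zp3 and Kit) and 3 lower (Zp2, Bmp15 and Nobox) on the spike-in scale. As deposited, 1 was called higher (Zp3) and 6 lower. The members' median change was −1.34 on the spike-in scale and −2.87 as deposited. Mos and Figla did not pass the filter of 1 FPKM in 3 of these libraries. Nobox passed it only through its α-amanitin libraries, so its call there follows in part from the filter, and without any one of them it was not tested.

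In the columns without R, Zp3 read 63.6, 52.1 and 42.7 FPKM with α-amanitin and 20.0, 15.7 and 14.1 FPKM without it. Its groups did not overlap in these FPKM, in the direction opposite to that in the columns with R. The change was −0.82 on the spike-in scale (SE 0.45, adjusted p = 0.165), where the groups overlapped, and −1.61 as deposited (SE 0.25, adjusted p = 0.00842). Zp2 read 7.87, 0.945 and 9.49 FPKM with the inhibitor and 1.46, 2.20 and 2.52 FPKM without it, with overlap and a spike-in scaled change of −0.30 (SE 0.54, adjusted p = 0.672). Zp1 read 10.6, 0.974 and 8.36 FPKM with the inhibitor and 0.904, 1.41 and 0.732 FPKM without it. In this set, 1 of 7 members tested was called lower on the spike-in scale (Oosp1) and 3 as deposited (Oosp1, Zp3 and Kit). Of all genes, 0.770% were called lower and 29.4% higher on the spike-in scale, and 6.43% lower and 7.98% higher with median-of-ratios factors. As deposited 4.18% were lower and 12.7% higher, and 11.2% were lower without overlap. Leaving out 1 library moved the 4206 genes called higher on the spike-in scale to between 1656 (without Am3) and 6682 (without NT3), and the 110 lower to between 31 (without Am1) and 153 (without NT3). With no filter, 0 genes were called. The median change of all genes was 0.88 on the spike-in scale and 0.26 as deposited, and that of the members −0.72 and −1.34.

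The difference between the sets was tested as an interaction of α-amanitin and column set over all 12 libraries. For Zp3 it was 4.42 on the spike-in scale (SE 0.53, adjusted p = 2.64e-05) and 3.27 as deposited (adjusted p = 0.000104), and it stayed positive and called under all 16 alternatives, from 2.06 to 4.78. For Zp2 it was −2.46 on the spike-in scale (adjusted p = 0.0138) and −3.53 as deposited (adjusted p = 0.00562), and the call was lost with no filter on low FPKM (adjusted p = 0.0562). Over all genes the median interaction was 1.42 on the spike-in scale, with 50.5% called positive and 2.71% negative (as deposited, 36.0% and 8.46%, and with median-of-ratios factors 19.1% and 17.0%). The number of genes called negative was 275 without RAm2 and 301 without RAm1. Of 9 members tested, 2 were called positive (Zp3 and Kit) and 2 negative (Zp2 and Bmp15) on that scale.

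Of the growth factor genes, Bmp15 passed the test of a difference between the sets, except with no filter on low FPKM, and Gdf9 did not. Bmp15 read 205, 113 and 107 FPKM in the α-amanitin libraries with R and 5.92, 3.51 and 11.0 FPKM in the untreated ones, with no overlap. In the columns without R it read 3.54, 16.5 and 11.9 FPKM with the inhibitor and 3.47, 8.12 and 6.20 FPKM without it, and the groups overlapped. Its spike-in scaled change was −2.35 with R (SE 0.47, adjusted p = 0.0014) and 0.08 without R (SE 0.55, adjusted p = 0.91), and as deposited −4.24 (adjusted p = 7.33e-05) and −0.60 (adjusted p = 0.459). The interaction was −2.43 on the spike-in scale (SE 0.75, adjusted p = 0.0143) and −3.64 as deposited (adjusted p = 0.00165), and the call was lost with no filter (adjusted p = 0.0566).

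Gdf9 read 20.9, 16.2 and 34.6 FPKM in the α-amanitin libraries with R and 5.41, 14.4 and 5.52 FPKM in the untreated ones. In the columns without R it read 25.1, 10.3 and 18.0 FPKM with the inhibitor and 7.69, 9.95 and 4.35 FPKM without it. FPKM were thus lower in all 6 untreated libraries than in the α-amanitin libraries of the same set. As deposited, 17.0% of all genes were lower without overlap with R and 11.2% without R. After spike-in scaling, the Gdf9 groups overlapped in both sets (with R, 9.91 to 15.8 with the inhibitor against 11.7 to 26.6). As deposited, the Gdf9 change was −1.46 with R (adjusted p = 0.0151) and −1.15 without (adjusted p = 0.0831), whereas on the spike-in scale it was 0.40 (adjusted p = 0.335) and −0.40 (adjusted p = 0.544). The sign in the columns with R therefore depended on the scale. The interaction was 0.80 on the spike-in scale (SE 0.65, adjusted p = 0.311).

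Oosp1 was lower without α-amanitin in both sets. It read 1760, 1780 and 434 FPKM with the inhibitor and 52.8, 144 and 118 FPKM without it in the columns with R. In the columns without R it read 305, 151 and 176 FPKM with the inhibitor and 49.1, 35.3 and 36.9 FPKM without it. In FPKM, each α-amanitin library lay above all 6 untreated ones, as for 2.95% of all genes tested. The spike-in scaled change was −1.50 in both sets, called without R (SE 0.43, adjusted p = 0.0225) and not with R (SE 0.65, adjusted p = 0.0569). The call without R was lost when Am1 or NT2 was left out (adjusted p up to 0.12). As deposited, the change was −3.51 (adjusted p = 0.00122) with R and −2.30 (adjusted p = 0.0058) without. The interaction was 0.00 on the spike-in scale (SE 0.81) and −1.21 as deposited (SE 0.74, adjusted p = 0.204), while with median-of-ratios factors it was −2.43 and called (adjusted p = 0.0204).

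**Figure D2:**
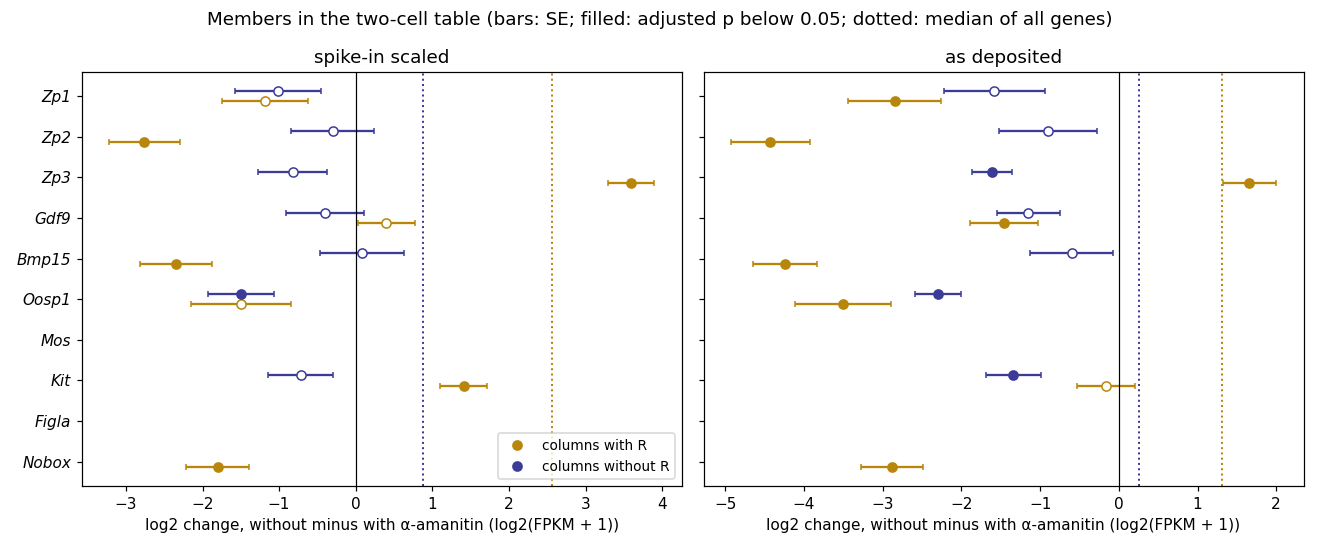
Points are log2 changes (without minus with α-amanitin, log2(FPKM + 1)) of the members in the 2 sets of two-cell columns, bars are SE, filled points have an adjusted p below 0.05 and dotted lines are the medians of all genes tested. Zp3 lay to the right of 0 in the columns with R and to the left in those without, on both scales.

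Of the remaining genes, Kit and Nobox were called in at least 1 set. Kit read 4.53, 1.98 and 5.92 FPKM with α-amanitin and 2.91, 2.80 and 4.46 FPKM without it in the columns with R. Without R it read 8.36, 8.11 and 5.58 FPKM with the inhibitor and 1.18, 2.56 and 3.46 FPKM without it. These groups did not overlap, and 11.2% of all genes were lower without overlap in that set. With R, the spike-in scaled change was 1.41 (SE 0.31, adjusted p = 0.0025) and relative to the median of all genes −1.15, while as deposited it was −0.16 (adjusted p = 0.699). Without R, it was −0.72 (adjusted p = 0.206) on the spike-in scale and −1.34 (adjusted p = 0.0401) as deposited. The Kit interaction was 2.14 on the spike-in scale (adjusted p = 0.00247) and 1.17 as deposited (adjusted p = 0.0815), and with median-of-ratios factors it was 0.10 (adjusted p = 0.906).

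Nobox read 13.3, 5.24 and 7.97 FPKM with α-amanitin and 0.818, 0.00 and 0.102 FPKM without it in the columns with R, with no overlap. These came to 253, 93 and 112 reads against 16, 0 and 2. In the columns without R, it read 1.48, 2.82 and 0.168 FPKM with the inhibitor and 0.00, 0.0473 and 0.393 FPKM without it. The spike-in scaled change with R was −1.80 (SE 0.41, adjusted p = 0.00312). Over all 12 libraries it was −1.29 (SE 0.41, adjusted p = 0.00919) on the spike-in scale and −1.93 (adjusted p = 0.00736) as deposited. It passed the filter there through the α-amanitin libraries alone.

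Mos read 2.41, 5.71 and 0.889 FPKM in the α-amanitin libraries with R, and 0.00 to 0.439 FPKM in the other 3. Without the inhibitor, it read 0.604, 0.00 and 0.918 FPKM with R and 0.00, 1.38 and 0.0910 FPKM without. Its change over all 12 libraries was 0.00 on the spike-in scale (SE 0.40, adjusted p = 0.997) and −0.54 as deposited (adjusted p = 0.291). Figla was at 0 in 9 of 12 libraries and at 1.11, 1.90 and 0.128 FPKM in R3, RAm2 and Am2, which were 9, 14 and 1 reads. At such counts a difference in Figla was not detectable.

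When all 12 two-cell libraries were compared in 1 test, 2 of 9 members tested (Nobox and Zp2) were called lower without α-amanitin on the spike-in scale, where 1.63% of all genes were lower and 71.4% higher. The Zp2 change was −1.53 (SE 0.65, adjusted p = 0.041), and the call was lost when any of NT1, NT2, NT3, RAm1, RAm2, RAm3 or R3 was left out (adjusted p up to 0.1). Nobox passed the filter on low FPKM through its α-amanitin libraries alone, and with no filter its adjusted p was 0.0366. With the column set as a term in the model, 4 members were called lower on the spike-in scale: Nobox, Zp2 (adjusted p = 0.0152), Oosp1 (adjusted p = 0.0128) and Zp1 (adjusted p = 0.0384), where 2.69% of all genes were lower and 72.6% higher. As deposited, 6 of 9 members (Nobox, Zp2, Gdf9, Zp1, Oosp1 and Bmp15) were called lower, where 8.51% of all genes were lower and 38.9% higher. For Oosp1 the change was −2.90 as deposited (SE 0.66, adjusted p = 0.00442), and the groups did not overlap. The exact permutation test over the 12 libraries gave the smallest p it can give, 0.00216 (two-sided). Its splits took no account of the column set. On the spike-in scale the same exact test gave p = 0.0866 for Oosp1, 0.0801 for Zp2 and 0.0238 for Nobox. Genes lower without overlap made up 2.95% as deposited. The members' median change was −1.10 on the spike-in scale and −1.93 as deposited, and the median of all genes was 1.49 and 0.67. Zp3 was at 1.39 (adjusted p = 0.0777) on the spike-in scale and 0.02 (adjusted p = 0.974) as deposited.

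**Figure D3:**
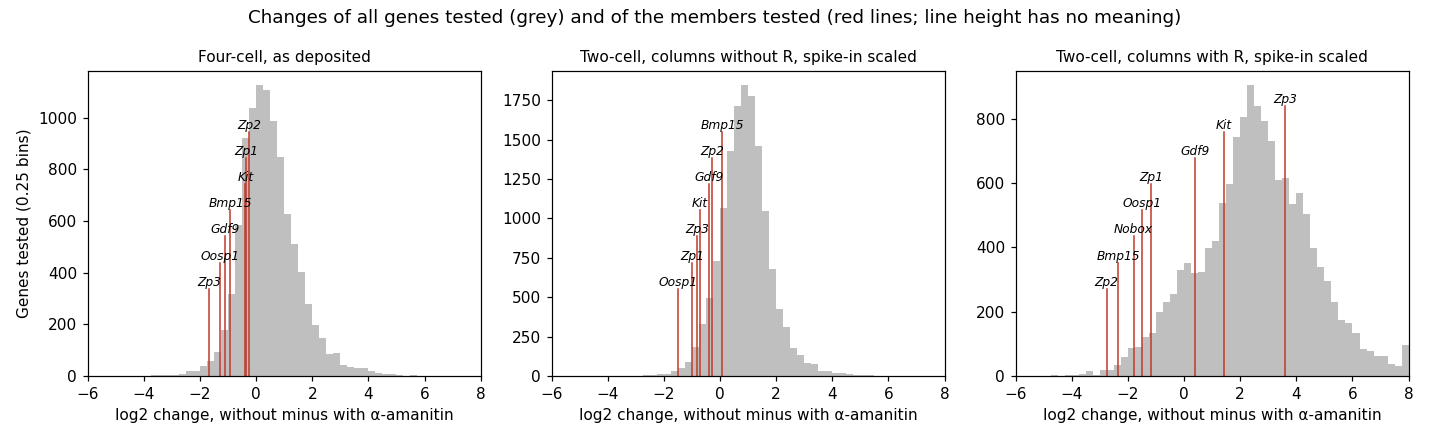
Grey bars count genes by log2 change (without minus with α-amanitin, log2(FPKM + 1)) in the four-cell libraries and in the 2 sets of two-cell libraries, with changes beyond 8 in size placed in the end bars. Red lines mark the members tested. All 7 members tested in the four-cell libraries lay below 0, and on the spike-in scale Zp3 was the 1 member above the median of 2.56 in the columns with R (with median-of-ratios factors its call was lost and it was below the median).

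The sets were next compared at the same treatment, which shows the levels of the members in the presence of the inhibitor. In the α-amanitin libraries, columns with R minus columns without, Bmp15 was higher by 3.21 (SE 0.51, adjusted p = 0.000537), Zp2 by 2.87 (adjusted p = 0.00156), Oosp1 by 1.96 (adjusted p = 0.0149) and Nobox by 1.42 (adjusted p = 0.015) on the spike-in scale. Zp3 was lower by 1.78 (log2 change −1.78, SE 0.34, adjusted p = 0.00134), and so was Kit (−1.07, adjusted p = 0.0174). These were 4 members called higher and 2 lower of 8 tested, where 9.43% of all genes were called higher and 58.5% lower, with a median of −1.06. The 1217 genes higher became 775 without RAm1 and 798 without RAm2. Relative to that median, Zp3 was at −0.72 and Kit at −0.01. The Zp3 change was −0.31 with median-of-ratios factors (adjusted p = 0.523) and was not called there. The Kit call was lost without Am1 or Am2 (adjusted p up to 0.0665), and the Nobox call without Am3 (adjusted p = 0.0545). With no filter, the calls of Oosp1 (adjusted p = 0.101), Nobox (adjusted p = 0.077) and Kit (adjusted p = 0.0506) were lost. As deposited, Bmp15, Zp2, Oosp1, Nobox and Zp1 were called higher, where 13.5% of all genes were, and Zp3 lower (−1.34, adjusted p = 0.0106), where 50.7% were.

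Among untreated libraries, the sets differed in fewer genes. On the spike-in scale, Zp3 (change 2.64, SE 0.44, adjusted p = 0.0172) and Oosp1 (1.96, SE 0.48, adjusted p = 0.0448) were called higher in the columns with R, 2 of 7 members tested, where 5.00% of all genes were higher and 0.484% lower. Leaving out 1 library moved these 744 genes higher to between 17 (without r1) and 5083 (without NT1). The 72 lower moved to between 4 (without r1) and 85 (without NT1), and with no filter 0 genes were called. As deposited, Zp3 alone was called (1.92, SE 0.23, adjusted p = 0.0291), where 0.316% of all genes were higher and 0.242% lower, and Oosp1 was at 1.25 (adjusted p = 0.135). The 3 untreated Zp3 values with R, 56.3 to 70.6 FPKM, lay above the 3 without, 14.1 to 20.0 FPKM, and 16.3% of genes were higher without overlap as deposited. The Zp3 call was lost without r1 or r2 (adjusted p up to 0.0908), and the Oosp1 call without NT2, NT3, r1 or r2 (adjusted p up to 0.174).

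In the four-cell recipients, Zp3 was the 1 member called. Zp3 read 29.7, 23.3 and 74.2 FPKM with α-amanitin (libraries S16, S18 and S8) and 11.3, 9.91 and 11.5 FPKM without it (S15, S17 and S7), from 122, 35 and 156 reads against 34, 24 and 33. The lowest α-amanitin library was above the highest untreated one. Its change was −1.69 (SE 0.44, adjusted p = 0.0399), where 1.13% of 9884 genes tested were called lower, 11.1% higher, and 7.56% were lower without overlap. Leaving out 1 library moved the 1093 genes higher to between 57 (without S7) and 1362 (without S16), and the 112 lower to between 6 (without S7) and 131 (without S16). The call was lost when S8, S15, S17 or S7 was left out (adjusted p up to 0.144), and also with a pseudocount of 0.1 (adjusted p = 0.0599) or with no filter (adjusted p = 0.116). It held with median-of-ratios factors (−1.88, adjusted p = 0.0396).

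The other members tested in the four-cell libraries were not called. Oosp1 read 15.3, 8.15 and 51.2 FPKM with α-amanitin and 9.03, 6.18 and 6.18 FPKM without it (change −1.30, SE 0.60, adjusted p = 0.188). Bmp15 read 4.11, 3.45 and 3.09 FPKM against 3.01, 1.96 and 0.151 FPKM, without overlap, for a change of −0.92 (SE 0.52, adjusted p = 0.28). Gdf9 was at −1.11 (adjusted p = 0.194), Kit at −0.38 (adjusted p = 0.55), Zp1 at −0.37 (adjusted p = 0.791) and Zp2 at −0.25 (adjusted p = 0.782). The 7 changes had a median of −0.92, beside 0.37 for all genes tested. Mos, Figla and Nobox did not pass the filter. Mos was found in 1 library (S17, 2 reads), Figla in 1 (S7, 4 reads), and Nobox at 0.00 to 0.873 FPKM (0 to 4 reads).

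**Figure D4:**
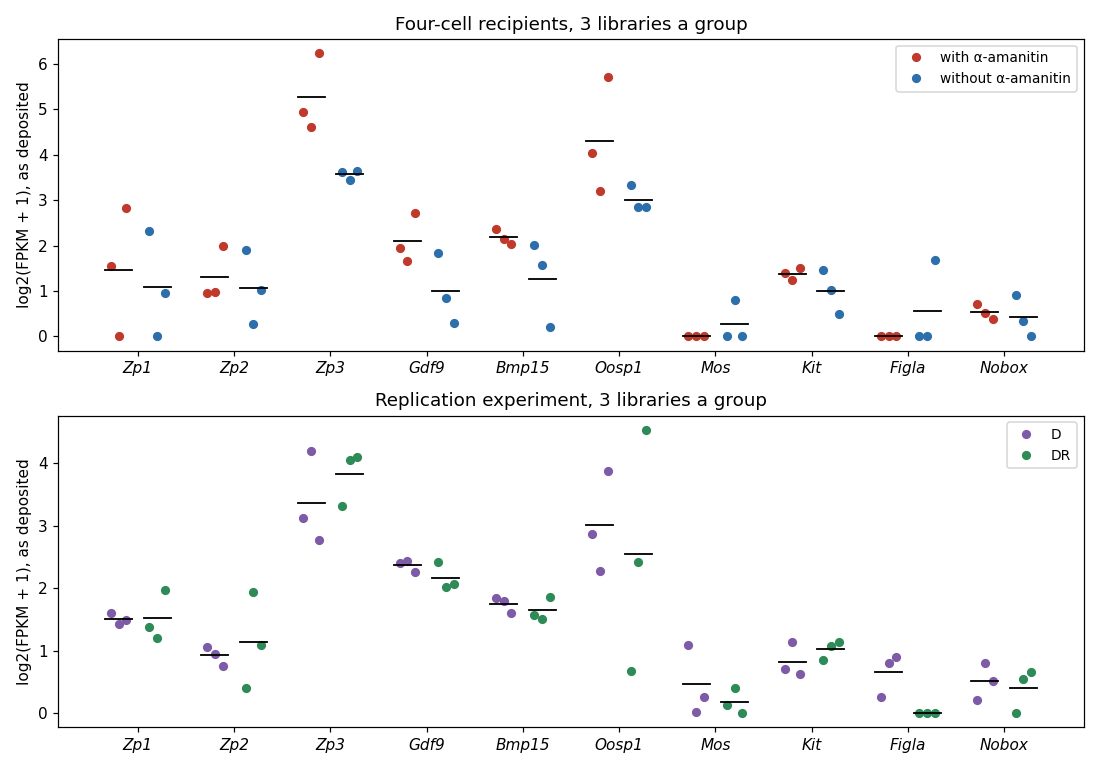
Points are libraries and lines are means of 3, on a log2(FPKM + 1) scale with values as deposited. In the four-cell recipients, the groups separate for Zp3 and Bmp15. In the replication experiment the values of D and DR overlap for each member but Figla, which had 12 reads or fewer in each library.

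In the replication experiment, no member was called between DR and D. Zp3 was the most abundant by median in both groups, at 7.73, 17.2 and 5.85 FPKM in D and 8.90, 15.6 and 16.0 FPKM in DR. Oosp1 read 6.28, 3.86 and 13.6 FPKM in D and 0.591, 4.35 and 22.1 FPKM in DR. Of 14570 genes tested, 0 (0%) passed limma in either direction on either scale, with 88 at an unadjusted p under 0.05 on the spike-in scale and 897 as deposited. The 88 became 0 without DR1 or D1 and 2664 without D5. Changes of the 7 members tested (DR minus D) ranged from −1.64 (Gdf9, SE 1.88) to −0.84 (Kit, SE 1.27) on the spike-in scale, and from −0.46 (Oosp1, SE 0.93) to 0.45 (Zp3, SE 0.43) as deposited. The median of all genes was −1.41 and 0.02. Figla, which did not pass the filter, read 0.197, 0.748 and 0.858 FPKM in D (1, 12 and 5 reads) and 0 in all 3 DR libraries. The D libraries were deeper, at 6059977 to 19181380 counted reads against 2603946 to 4252279 in DR. As deposited, 3.99% of genes tested were lower in DR without overlap. With 3 against 3 libraries the exact permutation test cannot go below p = 0.1, its value for Figla (two-sided).

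Other genes of the same pathways were taken from lists. On the spike-in scale of the 12 two-cell libraries, 12 of 16 tested genes for receptors, SMADs and ligands related to GDF9 and BMP15 were called higher without α-amanitin and 0 lower, where 71.4% of all genes were higher and 1.63% lower. The largest changes were those of Id3 (3.36) and Id2 (2.40), targets of BMP signalling, and of the receptor gene Bmpr1a (3.23). As deposited, where 38.9% of all genes were higher and 8.51% lower, 5 were higher, led by Id3 (2.42), Bmpr1a (2.08) and Id2 (1.49), and 2 lower, the latter being Bmpr1b (−1.31) and Bmp6 (−0.68), named after their values were seen. Of 16 tested genes around KIT signalling, 10 were higher and 0 lower on the spike-in scale, led by the adaptor genes Grb2 (3.89) and Sos1 (2.91) and by Rps6 (3.74), a ribosomal protein gene, and 6 were higher and 2 lower as deposited, with Grb2 at 2.70, Rps6 at 2.36 and Cbl at 1.89. Of 17 tested genes of the MOS cascade and meiotic arrest, 9 were higher, among them Cdk1 (4.14), Ccnb1 (3.93) and Plk1 (3.54), which drive mitosis and meiosis. The only one called lower was Wee2 (−2.13, adjusted p = 0.019), named after its values were seen, which encodes the oocyte kinase that inhibits CDK1. As deposited, 4 were higher and 2 lower, with Wee2 at −3.33, Cdk1 at 2.95 and Ccnb1 at 2.54. The list medians on the spike-in scale were 1.33, 1.02 and 1.74, beside 1.49 for all genes.

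Among egg coat and sperm-egg partner genes other than the members, 2 of 8 tested were higher on the spike-in scale, Cd81 (2.44) and Plac1 (1.36), and 0 lower, again beside 71.4% and 1.63% of all genes. As deposited, 1 was higher (Cd81, 1.34) and 4 were lower, beside 38.9% and 8.51% of all genes, with Oosp3 at −3.03 (adjusted p = 0.00718) and Oosp2 at −1.81 (adjusted p = 0.00599), both genes of the same family as Oosp1. Of 12 tested oocyte transcription regulators, 3 were higher on the spike-in scale (Ddx4 2.44, Taf4b 2.15, Tcf12 1.31), while as deposited 1 was higher and 5 were lower, with H1f8 at −1.59, Dazl at −1.51 and Zar1 at −0.87. The 12 maternal reference transcripts gave 4 higher and 0 lower on the spike-in scale, with Dppa3 at 3.19, Zar1l at 1.93 and Ccnb3 at 1.51. As deposited they gave 1 higher and 8 lower, with Oog1 at −2.60, Nlrp5 at −2.17 and Btg4 at −2.01. Their median was −0.12 and −1.41. By column set on the spike-in scale, they gave 4 higher and 2 lower with R (where 80.7% of all genes were higher and 5.28% lower) and 1 higher and 0 lower without R (where 29.4% and 0.770% were). Between the α-amanitin sets, with R minus without, 6 were higher and 2 lower, where 9.43% of all genes were higher and 58.5% lower. The list median there was 0.87, beside −1.06 for all genes.

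In the four-cell libraries, 3 of 11 tested receptor, SMAD and ligand genes were higher without α-amanitin, Id3 (3.37), Smad2 (3.23) and Smad4 (1.42), and 0 lower, where 11.1% of all genes were higher and 1.13% lower. In the KIT list, Foxo3 (2.15) was higher among 12 tested. The MOS, egg coat, regulator and maternal reference lists held 0 called genes among 11, 5, 7 and 11 tested, with medians of 0.42, −0.71, −0.52 and −0.54 beside 0.37 for all genes. In the replication experiment, every list held 0 called genes on both scales.

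The genes whose levels over the 12 two-cell libraries were most like those of the 3 most abundant members were found by Pearson correlation among 5481 genes. These values are a description, since the libraries share groups and depth. For Oosp1 they were Oosp3 (r = 0.979), Tcl1b2 (0.971) and Gm19224 (0.971). For Zp3 they were Gm50371 (0.932), B130046B21Rik (0.908) and Gm6507 (0.901), and for Gdf9 Dot1l (0.932), Ezh2 (0.908) and Foxk2 (0.894).

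Levels of markers of other cells also differed between some groups. The summed level of the 10 cumulus and granulosa markers was 12.3 to 18.4 FPKM in Am1 to Am3, 0.527 to 12.7 FPKM in RAm1 to RAm3, 2.40 to 2.80 FPKM in NT1 to NT3 and 1.69 to 5.67 FPKM in R3, r1 and r2. Most of it came from Ptgs2, at 6.86 to 17.8 FPKM in Am1 to Am3, while Fshr was at 0 in all two-cell libraries but one. In the four-cell table the sum was 1.65 to 3.51 FPKM with α-amanitin and 0.202 to 2.01 FPKM without it, with 8 or 9 of the 10 at 0. The 12 myoblast and mesenchymal markers, which stand for the donor cells, summed to 54.7 to 72.5 FPKM in Am1 to Am3, 31.7 to 46.0 FPKM in RAm1 to RAm3, 77.9 to 266 FPKM in NT1 to NT3 and 18.5 to 64.2 FPKM in R3, r1 and r2. Of 6 tested, 4 were higher without α-amanitin on the spike-in scale, with Col3a1 at 4.03, Col1a2 at 1.55 and Vim at 1.46, a share near the 71.4% of all genes, and 1 as deposited (Col3a1, 3.08). Of the 2 cumulus and granulosa markers tested, Ptgs2 and Tnfaip6, 0 were called on either scale over the 12 two-cell libraries, but both were called by set. Ptgs2 was lower without α-amanitin in the columns without R (−2.14 spike-in scaled, adjusted p = 0.0127), where 0.770% of all genes were. Tnfaip6 was higher in those with R (1.96, adjusted p = 0.000207), where 80.7% of all genes were. Their spike-in scaled interactions were 2.90 (adjusted p = 0.0174) and 2.10 (adjusted p = 0.0242), where 50.5% of all genes were called positive. As deposited, 0 of the 2 interactions were called. Between the α-amanitin sets Ptgs2 was at −2.34 (adjusted p = 0.00885), where 58.5% of all genes were called lower. The part of these cells in the changes of the members was not tested.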

How the data were processed

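RNA was amplified from poly(A) with SMART-Seq chemistry and sequenced as Nextera XT libraries. The submitters' processing notes name Trimmomatic, Trim Galore, cutadapt, STAR and featureCounts, with the mm10 genome. Versions are not given in the sources used here. The authors deposited FPKM, without spike-in scaling, in a four-cell, a replication and a two-cell table. A further 4 replication columns were not used, since their names match no sample. The oryx experiment, whose file holds the authors' own comparisons, was not used.

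FPKM of the two-cell and replication tables were divided by median-of-ratios factors from spike-ins found in every library (47 and 19 of 92). Genes with at least 1 FPKM in 3 libraries were tested by limma 3.58.1 (trend) on log2(FPKM + 1), which understates changes of low genes. Benjamini-Hochberg adjustment ran over all genes tested, and adjusted p below 0.05 was called. Each contrast was fitted on its own libraries (without minus with α-amanitin, DR minus D). Reads given for single genes were recovered from steps of low FPKM. Of values above 0, 100% came out whole (within 0.01 of a read) in the four-cell table and 40.3% to 50.5% in the others. With values of 0 counted, the share in the others was 68.4% to 79.3%. The deposited values are FPKM, so no values of a count model are reported. Alternatives were FPKM as deposited, median-of-ratios over genes, a pseudocount of 0.1, no filter, a replicate block and leaving out each library. The splits by column set, their interaction and the set as a term were chosen after the data were seen. Scripts were tested on simulated data, where most changes put in were recovered. The simulated spike-ins were drawn in proportion to library depth, so the simulation cannot decide between spike-in scaling and FPKM as deposited. The study describes its replicates as biologically independent.

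All members are named. From each other list, the 3 genes with the largest change among those called are named. Likeness is shown for the 3 members of highest median FPKM in the two-cell table. The members and lists were chosen with earlier results of these data known.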

Additional observations from a re-analysis of the deposited data

Results flagged for a closer look

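The change with α-amanitin differed between the 2 sets of two-cell columns by the interaction test for Zp3 (4.42 spike-in scaled, 3.27 as deposited), Zp2 (−2.46 and −3.53), Bmp15 (−2.43 and −3.64), Kit (2.14, spike-in scaled) and Nobox (−1.91, as deposited, adjusted p = 0.0254). Nobox passed the filter on low FPKM through its α-amanitin libraries alone. With no filter on low FPKM, the spike-in scaled Zp2 and Bmp15 calls were lost. Over all genes, 50.5% were called positive and 2.71% negative on the spike-in scale.

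In the 20 groups of 6 two-cell libraries (10 members, with and without α-amanitin), 3 held a library far from the others by Dixon's test. Its chance rate of about 1 in 20 holds for normal values of a single group. It does not apply here, since each group mixed both column sets. The Figla flags follow from groups nearly all at 0, where any library with a few reads stands apart. Figla was 1.11 FPKM in R3, with 0.00 in the other 5 untreated libraries, and 1.90 FPKM in RAm2, with 0.128 next among the α-amanitin libraries. Zp1 was 4.78 FPKM in R3, with 2.23 next.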

How the results depend on the processing

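Over 721 alternative values for single members, 622 stayed on the same side of the threshold (29 of them, of members not called, with the opposite sign), 42 lost a call, 49 gained one and 8 reversed. The cause was not tested. In the four-cell contrast (1093 genes higher, 112 lower and 1 member lower), a pseudocount of 0.1 gave 673, 59 and 0 and no filter gave 275, 9 and 0. Leaving out 1 library gave 57 to 1362 higher, 6 to 131 lower and 0 to 1 member lower, with the fewest genes without S7 and no member without S8, S15, S17 or S7. In the replication contrast, leaving out 1 library gave 0 to 1 gene lower (1 without D5).

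For all 12 two-cell libraries (12278 higher, 281 lower and 2 members lower), FPKM as deposited gave 6694, 1464 and 6 and median-of-ratios 4480, 2267 and 7. A pseudocount of 0.1 gave 236 genes and 1 member lower, no filter 167 genes and 1 member lower, and column set as a term 462 and 4. Kit reversed to −1.29 with median-of-ratios. Leaving out 1 library gave 155 to 413 genes lower, 1 to 4 members lower and 0 to 1 member higher (Zp3 without Am1, Am2, NT2 or NT3, adjusted p down to 0.0253). Without Am2 or R3, Zp1 was called lower (adjusted p down to 0.0111), Bmp15 without Am1 (0.0262), and Oosp1 without Am2, Am3, r1 or r2 (down to 0.0368).

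In the columns with R, members higher and lower (2 and 3) became 1 and 6 as deposited and 0 and 6 with median-of-ratios (44.4% of all genes higher and 23.8% lower). In the same order, Gdf9 reversed to −1.46 and −2.45 and Kit to −0.16 and −1.01. Zp1 was called without RAm2 or R3 (adjusted p down to 0.00759) and Oosp1 without RAm3 or r2 (down to 0.00145). In the columns without R, members lower (1) became 3 as deposited, 4 with median-of-ratios (7.98% of all genes higher and 6.43% lower), 0 with no filter (where 0 of all genes were called) and 0 to 2 when 1 library was left out (Zp1 called without Am2, adjusted p = 0.038). For the interaction, members higher (2) became 1 as deposited and with median-of-ratios. Members lower (2) became 5 with median-of-ratios (19.1% of all genes positive and 17.0% negative) and 0 with no filter (20.4% and 1.01%). Oosp1 reversed to −2.43 with median-of-ratios and was called (adjusted p = 0.0204).

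Between sets with α-amanitin, members lower (2) became 1 as deposited (13.5% of all genes higher and 50.7% lower) and 0 with median-of-ratios (22.0% and 28.7%). They became 1 to 2 when 1 library was left out. No filter gave 2 members higher and 1 lower (Oosp1, Nobox and Kit lost), where 2.79% of all genes were higher and 21.2% lower. Gdf9 reversed to 1.43 and Kit to 0.13 with median-of-ratios. Zp1 was called without Am1, Am3 or RAm2 (adjusted p down to 0.0157). Between sets without α-amanitin, members higher (2) became 1 as deposited (0.316% of all genes higher), with median-of-ratios (0.403%) and with a pseudocount of 0.1 (1.02%). They became 0 with no filter (0% of all genes), and 0 to 2 when 1 library was left out.

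Same-numbered two-cell libraries did not deviate together (correlations 0.00 to 0.08), so the numbers were not taken as pairs. A replicate block gave 11615 genes higher, 323 lower and 4 members lower, and with FPKM as deposited 6027 genes higher, 1344 lower and 6 members lower. No paired analysis was made of the other tables, since the four-cell columns carry no shared numbers and D and DR share only 1. The labels do not say whether adjacent four-cell numbers mark pairs, and such a pairing was not examined. Count tests on recovered reads were planned and tried. Their values are left out. The deposited values are FPKM, and in 2 of the tables only 40.3% to 50.5% of values above 0 came out whole. The latter reason does not cover the four-cell table, where 100% did. By the count tests, as with median-of-ratios factors, Zp3 in the columns with R was not called and Kit changed sign. The four-cell Zp3 call held by both. Low counts (Mos, Figla) and 3 libraries a group limit what could be detected.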
